A study of Mus musculus with 16 samples.

Results

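RNA of whole femur and of white adipose tissue from the same 4 wild-type mice was compared on Illumina bead arrays, which read each transcript by the brightness of a probe. The 8 arrays were chosen by their labels as wild-type femur (4) or wild-type white adipose tissue (4), out of 16 arrays in the series. All animals were of strain C3HeB/FeJ and 17 weeks old, and the series design names 4 male mutants beside the 4 controls; the other 8 arrays hold the same tissues of mice of AEA001, an Ednra mutant line made with the mutagen ENU and described as modelling osteoporosis. Each wild-type mouse gave both tissues, so each femur was paired with the fat of its own animal. Wild-type replicate 3 carries the same mouse identifier as a mutant replicate (7 identifiers for 8 mice), so the number of probes whose tissue difference differed by genotype is also given without that pair. The fat depot is not stated in the labels, and whether marrow or muscle stayed with the bone is shown here only by marker genes.

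The femur is a composite organ. Osteoblasts lay down its collagen and mineral, osteocytes sit within the matrix, osteoclasts resorb it, and the marrow cavity makes red cells, platelets, granulocytes and B cells. White adipose tissue stores triglyceride in adipocytes and secretes hormones such as leptin and adiponectin, within a stroma of vessels, fibroblasts and immune cells. Because whole tissues were measured, fewer cells of a type and less RNA per cell cannot be told apart anywhere below.

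Values are the deposited normalized intensities, on a linear scale with background already removed, so that they can be below 0. Across the 8 arrays, 14207 to 14227 of 25697 probes exceeded an intensity of 16. The sorted values of any 2 of these 8 arrays differed by at most 0.797. The 8 arrays thus have nearly the same distribution, with a top value of 33738. The mutant arrays were not compared in this way. A floor of 16 was applied to the intensities before the log2 step. The 14913 probes above 16 on at least 4 of the 8 arrays were tested with limma in a fit that pairs the tissues of each animal, with Benjamini-Hochberg adjustment over these probes. Every difference is femur minus fat on the log2 scale with its standard error (n = 4 pairs), and a gene is represented by its brightest kept probe. Where every array of a tissue lay at or below 16 the fold difference is a bound, written "at least". Intensities of an item are listed in the order of animals 1 to 4, an order that carries no meaning.

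Bone and fat differed across most of the measured transcriptome. Of the 14913 probes, 4962 were higher in femur and 5628 higher in fat, so 71.0% passed the threshold (limma adjusted p under 0.05). Of 10183 genes, 3567 (35.0%) were higher in femur and 3717 (36.5%) in fat, so that 71.5% were called, with a median difference of -0.03. At least 2-fold, 2064 (20.3%) were higher in femur and 2178 (21.4%) in fat. With that much of the array called, a call on a single gene says little by itself, and the counts of gene groups are to be read against 35.0% in femur and 36.5% in fat. Group counts are over the genes kept, so members with probes too dim to be kept are left out. A gene read in a single tissue was kept through that tissue's arrays alone, so its direction was fixed by the filter.

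Sorted by presence, 700 probes (440 genes) were above 16 on all 4 femur arrays and on no fat array. The reverse held for 473 probes (273 genes). Femur-only probes reached further above the floor: their median intensity in femur was 72.2 and 59 of them were at least 100-fold above the floor, against a median of 45 and 2 such probes for fat. Another 118 of the femur-only and 137 of the fat-only probes lay less than 2-fold above the floor, so that a lower level in the other tissue was not detectable far below them. Most probes were shared: 11491 (77.1%) exceeded 16 on all 8 arrays. Among the genes these shared probes stand for, 1396 were called at least 2-fold higher in femur, 1697 at least 2-fold higher in fat, and 3605 (35.4% of all genes) were close in level, with a 95% interval of the difference inside -1 to 1.

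**Figure D1:**
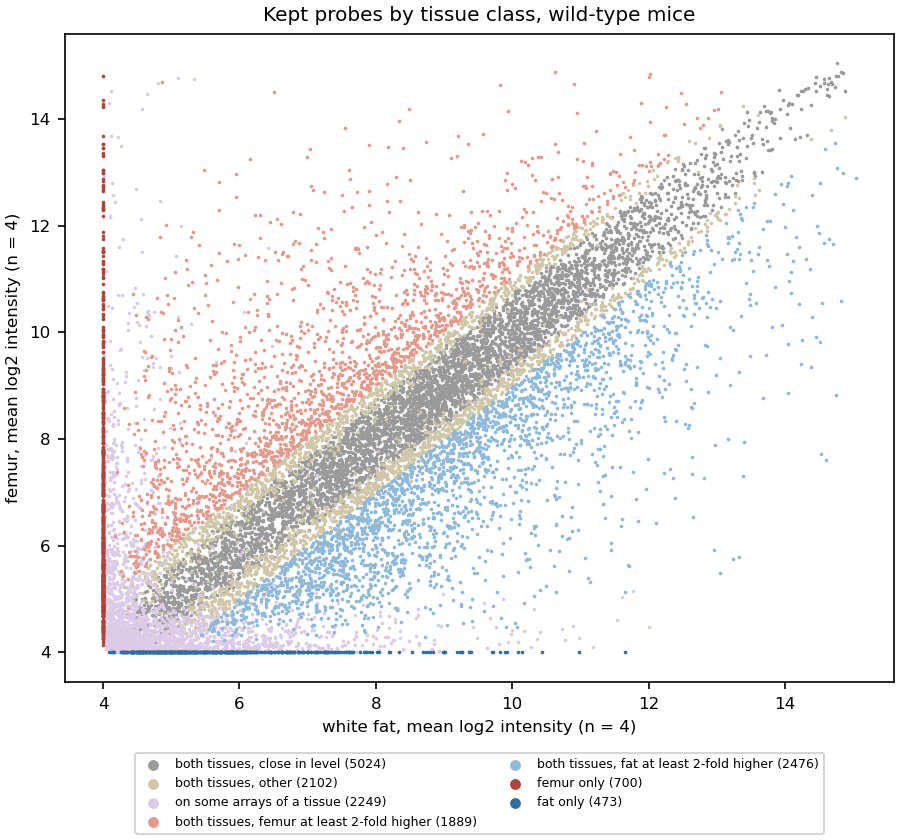
Mean log2 intensity of each kept probe in white fat (horizontal axis, n = 4) and femur (vertical axis, n = 4), coloured by the classes in the text, with the number of probes of each class in the legend. The 700 femur-only probes stand on the left edge and reach higher than the 473 fat-only probes on the lower edge, and the 5024 probes close in level fill the diagonal.

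The marker genes matched the labels of both tissues. Bglap, which encodes the bone matrix hormone osteocalcin, read 11337, 14406, 15767 and 11700 in femur and between -12.2 and -6.2 in fat. Lep, the adipocyte hormone leptin, was 27335, 27335, 24258 and 20938 in fat, and 126, 257, 211 and 215 in femur. Adipoq, which encodes adiponectin, was 17281, 17415, 18262 and 15666 in fat and 1550, 2229, 2248 and 2052 in femur. All 3 separated the tissues without overlap, Bglap by at least 823-fold (9.69 ± 0.13, adjusted p = 2.82e-07), Lep by 127-fold (-6.99 ± 0.21, adjusted p = 2.14e-06) and Adipoq by 8.57-fold (-3.10 ± 0.13, adjusted p = 7.39e-06). Both adipocyte hormones were above 16 on every femur array.

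The blood cell markers were high in femur and present in fat. S100a8, a subunit of the neutrophil protein calprotectin, read 26007, 25685, 25543 and 24946 in femur, against 1485, 1468, 692 and 435 in fat. Alas2, the erythroid enzyme that begins heme synthesis, read 17865, 20415, 17281 and 17515 in femur, against 793, 910, 1029 and 1259 in fat. Neither gene overlapped between tissues (4.83 ± 0.32 and 4.21 ± 0.16, adjusted p = 3.71e-05 and 4.19e-06). In contrast to Bglap, both were read well above 16 on every fat array.

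**Figure D2:**
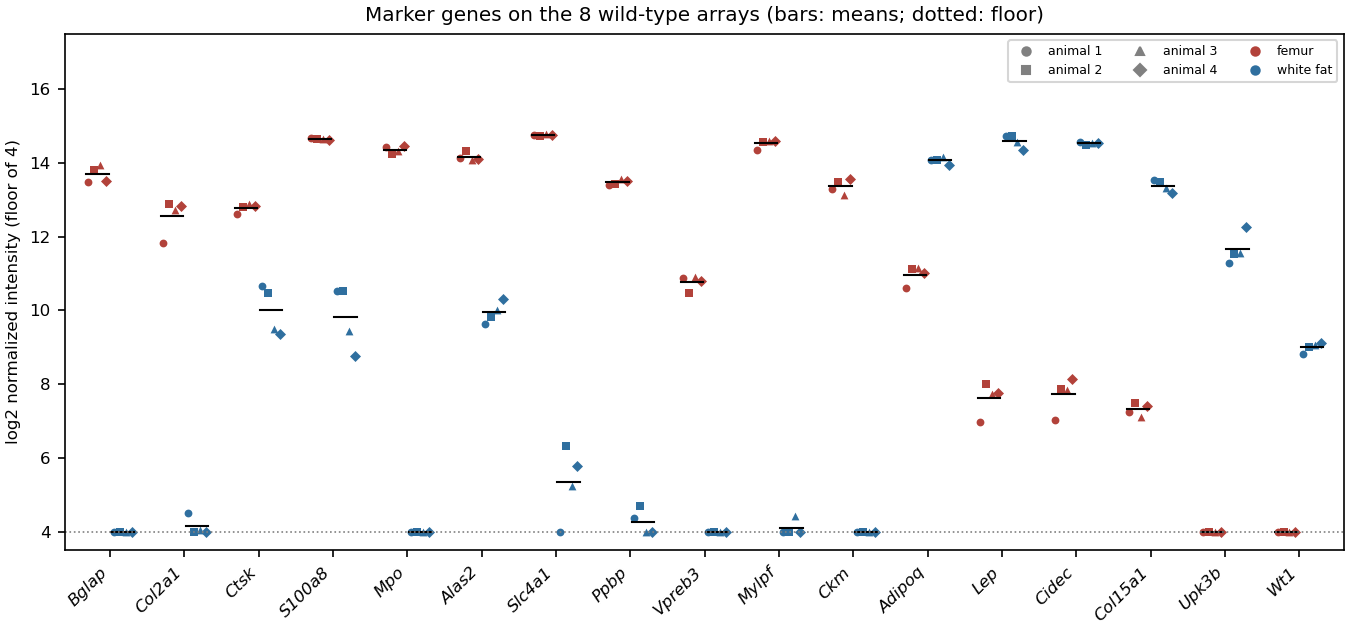
Log2 intensity of 17 marker genes on each of the 8 wild-type arrays (vertical axis; values below the dotted line at 4 were set to it), with 1 point per array, red for femur and blue for white fat, a symbol for each animal, and bars for the means of 4. Bglap, Mpo and Ckm are at the floor on every fat array and Upk3b and Wt1 on every femur array, whereas S100a8, Alas2, Lep and Adipoq were read in both tissues.

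Bone-forming genes set the femur apart, though not as a block. Of 19 osteoblast and bone matrix genes kept (21 had a probe), 12 were higher in femur, 5 were higher in fat and 2 were not called, with a median difference of 2.40 against -0.03 over all genes. Bglap2, a neighbouring osteocalcin copy whose near-identical sequence may share signal with Bglap, was the highest, at 17415 to 21499 in femur and -3.7 to 2.5 in fat (at least 1210-fold). Ibsp, bone sialoprotein, read 4971, 7494, 6458 and 7340 in femur and at most 8.0 in fat. Sp7, the osteoblast transcription factor osterix, read 1025, 1351, 1229 and 1283 against at most 0.9. Both were femur only, at least 405-fold (8.66 ± 0.14) and at least 76.0-fold (6.25 ± 0.12) higher.

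The collagen I genes, by contrast, were shared with fat. Col1a1 was 9603, 12623, 10538 and 11438 in femur and 4901, 4298, 2702 and 2769 in fat, a 3.10-fold difference with no overlap (1.63 ± 0.20, adjusted p = 0.000559). Col1a2 was 13-fold higher in femur (3.70 ± 0.13). Alpl, the alkaline phosphatase that frees phosphate for mineral, was 9.11-fold higher (3.19 ± 0.14), and Pth1r, the parathyroid hormone receptor, 5.26-fold (2.40 ± 0.25). Ank, a pyrophosphate exporter of the same list, was 2.97-fold higher (1.57 ± 0.11). Sparc, the matrix protein osteonectin, went the other way, with 23924 to 27513 in fat and 11805 to 16374 in femur (-0.89 ± 0.11, adjusted p = 0.000554). Creb3l1, a transcription factor of collagen-secreting cells, was also higher in fat (-1.11 ± 0.19).

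The Bglap promoter window is shown because Runx2, a regulator of osteoblasts, is known to act on it. All windows printed here are RefSeq sequence of GRCm38.p6 from 250 bases before to 50 after the start of transcription, 5′ to 3′ on the gene's strand. The capitals mark ACCACA, the core searched for Runx on both strands. It was in 2 of the 10 bone matrix genes with a window (20%) and in 12.9% of 8261 kept genes with one. Other patterns counted in the same 10 genes also differed: CAGCTG was in 30%, against 15.3% of kept genes, and TTGCNNAA in 0%, against 8.79%. A match of letters is not a measured binding site. This window lies at chr3:88384417-88384716 on the minus strand, with the match at -132.
Bglap: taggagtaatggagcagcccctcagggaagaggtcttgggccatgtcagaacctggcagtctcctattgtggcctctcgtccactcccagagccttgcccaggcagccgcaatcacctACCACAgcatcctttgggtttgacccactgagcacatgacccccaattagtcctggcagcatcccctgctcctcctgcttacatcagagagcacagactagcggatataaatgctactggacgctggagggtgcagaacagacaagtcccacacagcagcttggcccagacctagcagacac

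Osteocyte genes were divided. Phex, the endopeptidase whose loss in humans and mice causes phosphate wasting, read 363, 422, 416 and 424 in femur and at most 12.1 in fat (at least 25.3-fold, 4.66 ± 0.11). Mepe, a matrix phosphoglycoprotein, read 409, 133, 341 and 225 in femur and 23.9 to 36.8 in fat (2.98 ± 0.27), without overlap despite its wide spread between femurs. Pdpn, podoplanin of early osteocytes and of lymphatic vessels, was 5.03-fold higher in fat (-2.33 ± 0.12), and Fam20c, a secretory pathway kinase, 8.30-fold (-3.05 ± 0.17). In all, 5 of the 7 osteocyte genes kept (10 had a probe) were higher in femur and 2 in fat, with a median of 1.6. Over probes above 16 on all 8 arrays the median was -2.33. Dmp1, Sost and Fgf23 were not kept and read at most 26.05, 15.62 and 21.05 in femur.

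Of 12 osteoclast genes kept (15 had a probe), 8 were higher in femur, 2 in fat and 2 were not called, with a median of 0.74. Calcr, Ocstamp and Atp6v0d2 were not kept and read at most 16.51 in femur. Ctsk, the collagen-degrading cathepsin K, was 6310, 7101, 7590 and 7232 in femur and 1614, 1418, 727 and 660 in fat, 6.88-fold (2.78 ± 0.28, adjusted p = 0.000247). Car2, the carbonic anhydrase that supplies acid for resorption and is also abundant in red cells, was 139-fold higher (7.12 ± 0.29). Acp5, tartrate-resistant acid phosphatase, was only 2.44-fold higher (1.29 ± 0.16). Clcn7, the chloride exchanger of the resorbing membrane and of lysosomes, was 1.95-fold higher in fat (-0.96 ± 0.13). The femur-only part of this list was 1 gene of 12.

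Cartilage genes were read in the femur arrays, with animal 1 standing apart. Which cartilage of the bone they came from was not tested. Col2a1, the collagen of cartilage, was 3623, 7627, 6776 and 7256 in femur and at most 22.9 in fat. Chad, chondroadherin, read 3464, 5406, 5695 and 6170 in femur and at most 6.5 in fat (at least 317-fold, 8.31 ± 0.17). Acan, the proteoglycan aggrecan, was 144, 401, 289 and 381 in femur, and Col10a1, the collagen of hypertrophic chondrocytes, 78.6, 400, 453 and 334, while both were below 1 in fat on every array. Femur 1 was the lowest of the 4 for each of these genes, and its mean log2 intensity over the 14 cartilage genes was 6.83 against 7.69 to 7.77 on the other 3. The list kept 14 of 18 genes with a probe, 11 higher in femur and 1 in fat. Its median was 2.23 on all pairs and 2.58 without replicate 1. On all fat arrays 2 of the 14 were above 16, against 12 on all femur arrays. Most were thus kept through the femur, and over probes above 16 on all 8 arrays the median was -0.71. Ihh was not called (-0.71 ± 0.47, adjusted p = 0.219). Matn3, Cnmd and Col9a3 were not kept and read at most 2.93 in femur. Ucma, which read up to 51.5 in femur, was not kept either. The gene higher in fat was Sox9, a chondrocyte transcription factor also used elsewhere, at 13.5 to 46.6 in femur and 23.1 to 112 in fat (-1.04 ± 0.17). Its ranges overlapped, and the call was lost in a fit without the pairing of animals (adjusted p = 0.0882). Mia, a small secreted cartilage protein, was called at 1.66 ± 0.59 (adjusted p = 0.0442) but ranged from 4.6 to 427 in fat, and its call was lost without replicate 1 (0.92, adjusted p = 0.0551), replicate 2 (adjusted p = 0.114) or replicate 3 (adjusted p = 0.0644).

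Granulocyte genes of the marrow included the largest femur difference. Ltf, the iron-binding granule protein lactoferrin, read 29121, 27923, 28636 and 28864 in femur and at most 11.9 in fat, at least 1790-fold (10.81 ± 0.10, adjusted p = 2.45e-07). Ngp, a neutrophil granule protein, read 19059, 15666, 24459 and 21296 against at most 2.4. Mpo, the myeloperoxidase made in granulocyte precursors, read 22008, 19249, 20603 and 22457 against at most 0.4. Neither was above 16 on any fat array (at least 1240-fold and 1320-fold). Camp, a cathelicidin, and Retnlg, a resistin-like protein of neutrophils, were also femur only, at least 1200-fold and 740-fold higher. Ctse, the protease cathepsin E, is in neither neutrophil list and was femur only as well, at least 743-fold higher. S100a9, the partner of S100a8, differed by 10.22 ± 0.11, with 1 fat array at 20.2 and 3 at or below 16.

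All 10 neutrophil precursor genes and 15 of 16 mature neutrophil genes were higher in femur, with medians of 6.70 and 5.56. The elastase Elane (7.57 ± 0.17) and proteinase 3, Prtn3 (4.35 ± 0.15), belong to the precursor granules. Lcn2, lipocalin 2, was read on every fat array, at 709, 2126, 2406 and 4265 there and 11606 to 23157 in femur (3.15 ± 0.41). Anxa1, the glucocorticoid-regulated annexin found in neutrophils and many other cells, did not pass the test (0.11 ± 0.23, adjusted p = 0.691), with femur values of 504 to 823 and fat values of 479 to 809.

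The Ngp and Ltf windows are shown because C/EBP factors are known to drive late granule genes. The capitals mark TTGCNNAA, searched on both strands, at -138 and -11 in Ngp (chr9:110419558-110419857, plus strand) and at -75 in Ltf (chr9:111019042-111019341, plus strand). This pattern was in 9 of 24 neutrophil genes with a window (37.5%) and in 8.79% of the kept genes. It was not alone: TATAAA was in 29.2% of the same 24 genes, against 8.32% of kept genes, while CAGCTG was in 8.33%, against 15.3%. In all, 6 motifs were counted over the gene groups, and these shares are descriptions.
Ngp: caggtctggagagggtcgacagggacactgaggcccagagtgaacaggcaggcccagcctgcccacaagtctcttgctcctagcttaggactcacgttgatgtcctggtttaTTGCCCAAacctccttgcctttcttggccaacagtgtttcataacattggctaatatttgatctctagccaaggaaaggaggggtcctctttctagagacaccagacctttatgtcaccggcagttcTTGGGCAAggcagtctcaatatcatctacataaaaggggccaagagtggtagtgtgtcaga
Ltf: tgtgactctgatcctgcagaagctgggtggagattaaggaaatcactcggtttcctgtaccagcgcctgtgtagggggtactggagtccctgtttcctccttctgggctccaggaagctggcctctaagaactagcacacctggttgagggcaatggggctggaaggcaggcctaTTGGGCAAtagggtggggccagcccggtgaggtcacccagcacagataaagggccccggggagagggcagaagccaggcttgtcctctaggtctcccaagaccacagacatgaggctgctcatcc

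The kept genes of the red cell membrane, of erythroid regulation and of heme synthesis were higher in femur. Slc4a1, the band 3 anion exchanger of the red cell membrane, read 27673, 26900, 27923 and 27513 in femur and 10.6, 79.4, 37.7 and 54.9 in fat (9.42 ± 0.37). Klf1, the erythroid Krüppel-like factor, read 5093 to 6059 in femur and 13.1 to 21.7 in fat (8.26 ± 0.14). Gata1, the master erythroid and megakaryocyte transcription factor, read 422, 379, 291 and 354 against at most 0.5 (at least 22.4-fold), and Trim10, a protein of terminal erythroid cells, 8772 to 11982 against at most 15.8 (at least 630-fold). The 11 red cell membrane genes kept of 12 with a probe, all 11 erythroid regulators and all 7 heme enzymes with a probe were higher in femur, with medians of 4.90, 4.49 and 2.69. Tfrc, the transferrin receptor that brings in iron, was 17.4-fold higher (4.12 ± 0.12), whereas the heme enzymes that all cells use, Urod (1.91 ± 0.12) and Alad (1.32 ± 0.16), differed less.

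Globin RNA could not be separated by these arrays at the top of their scale. Hba-a1, alpha globin, held the highest value that occurs, 33738, on all 4 femur arrays, and 25543, 27176, 29382 and 29121 in fat. The difference of 0.28 ± 0.10 missed the threshold (adjusted p = 0.0503) and is bounded by that ceiling. The beta globin probes were below it: Hbb-bt read 1512 to 1772 in femur and 73.6 to 111 in fat (4.28 ± 0.12), and Hbb-b2 4595 to 6070 and 651 to 930 (2.63 ± 0.18). These copies are nearly identical, so their signals may be shared. Alpha globin was read on every fat array.

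Alas2 and Trim10 windows are shown with the GATA pattern AGATAA (both strands, capitals; TTATCT is the same site read on the other strand). It was found in 7 of 25 red cell genes with a window (28.0%) and in 6.65% of kept genes. Alas2 lies at chrX:150547167-150547466 and Trim10 at chr17:36869324-36869623, both on the plus strand, with matches at -86 and -163.
Alas2: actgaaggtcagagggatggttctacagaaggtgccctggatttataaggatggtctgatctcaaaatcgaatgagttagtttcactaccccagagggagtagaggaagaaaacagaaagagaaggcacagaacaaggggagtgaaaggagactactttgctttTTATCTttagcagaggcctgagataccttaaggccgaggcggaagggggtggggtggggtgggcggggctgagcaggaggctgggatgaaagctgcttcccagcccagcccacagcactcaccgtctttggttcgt
Trim10: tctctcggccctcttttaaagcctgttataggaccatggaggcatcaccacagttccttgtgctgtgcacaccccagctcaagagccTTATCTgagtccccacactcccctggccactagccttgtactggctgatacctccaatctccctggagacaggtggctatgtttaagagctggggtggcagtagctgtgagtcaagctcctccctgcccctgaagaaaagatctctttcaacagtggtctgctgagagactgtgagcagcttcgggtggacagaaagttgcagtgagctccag

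Platelet and lymphocyte lineages followed. All 11 megakaryocyte and platelet genes were higher in femur (median 5.65). Ppbp, a platelet chemokine precursor, read 10833 to 12174 in femur and 8.6 to 25.9 in fat (9.22 ± 0.17). Pf4, platelet factor 4, was read in both tissues, at 4232 to 6121 and 739 to 1118 (2.47 ± 0.14). Alox12, the platelet lipoxygenase, read 5901 to 7305 in femur and 34.2, 127, 200 and 391 in fat (5.58 ± 0.56). Fat 4 was the highest of the fats for Alox12, and none of the 3 overlapped between tissues.

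Of 14 B cell genes kept (17 had a probe), 13 were higher in femur (median 4.68). The B cell precursor genes Vpreb3 (at least 109-fold, 6.76 ± 0.12) and Vpreb1, of the surrogate light chain (46.1-fold, 5.53 ± 0.17), were high in femur. So were the antigen receptor subunit Cd79b (5.77 ± 0.14) and Mzb1 of antibody-secreting cells (5.41 ± 0.13). T cell and cytotoxic genes differed less: 9 of 12 were higher in femur and 3 were not called (median 0.99), with Cd3d, a T cell receptor subunit, the widest at 5.43 ± 0.15. Ikzf1, the lymphoid factor Ikaros, led the 6 of 7 stem and progenitor genes kept that were higher in femur (4.73 ± 0.26). That list had 12 genes with a probe, and Flt3, Mycn, Cd48, Hlf and Sox4 were not kept, reading at most 16.75 in femur.

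Eosinophil genes varied most between femurs. Prg2, the major basic protein of eosinophil granules, was 15666, 586, 15575 and 3094 in femur and at most 21.4 in fat (8.06 ± 0.82). Epx, eosinophil peroxidase, was 435, 27.6, 449 and 99.9, and Prg3, a Prg2 homologue, 453, 19.4, 502 and 55.6, while both were below 16 in fat. The same femurs, 1 and 3, were high for all 3 genes and femur 2 was lowest. The call on Prg3 (2.97 ± 0.82, adjusted p = 0.0182) was lost without replicate 1 (adjusted p = 0.0585) or replicate 3 (adjusted p = 0.0675). Some mast cell proteases were on the fat side: Mcpt4 read 477 to 520 in fat and 11.6 to 33.5 in femur (-4.47 ± 0.23), Tpsb2 was 19.3-fold higher in fat (-4.27 ± 0.13) and Cma1 7.42-fold (-2.89 ± 0.20). Cpa3, the carboxypeptidase shared by mast cells and basophils, was not called by its brightest probe (-0.19 ± 0.19, adjusted p = 0.418), while another of its 3 probes was called higher in fat (-0.51, adjusted p = 0.0245). On the femur side were Mcpt8, a protease made by basophils (at least 13.4-fold), Fcer1a, the IgE receptor chain of both cell types (2.57 ± 0.22), and Hdc, their histamine-forming enzyme (2.73 ± 0.40). Over the whole list of mast cell, basophil and eosinophil genes, 13 were kept (14 had a probe), of which 8 were higher in femur and 3 in fat.

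Dividing cells were a femur feature. All 24 cell cycle and replication genes were higher in femur, against 35.0% of all genes, with a median of 4.25. Plk1, the mitotic polo-like kinase, was 2259, 2162, 2188 and 1731 in femur and 25.4 to 32.8 in fat (68.7-fold, 6.10 ± 0.14). Mcm5, a subunit of the replicative helicase, was 30.1-fold higher (4.91 ± 0.13), and Cenpa, the centromeric histone, 18.0-fold (4.17 ± 0.12).

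Skeletal muscle RNA was present in every femur array. The summed intensity of 17 muscle genes was 223154 to 246316 in femur and 1963 to 3294 in fat, and all 17 were higher in femur (median 8.83), with 6 at or below 16 on all fat arrays. Mylpf, the fast myosin regulatory light chain, read 20938, 24084, 24767 and 24767 in femur and at most 21.6 in fat (10.42 ± 0.12). Ckm, muscle creatine kinase, read 10018, 11438, 8966 and 12077 against values below 0 (at least 660-fold). Tnnc2, Tnnt3 and Tnni2, the fast troponins, Atp2a1, the calcium pump of fast fibres, Pvalb, the calcium buffer parvalbumin, and Mb, myoglobin, differed by 8.0 to 9.82. Eno3, muscle enolase, differed by 6.41 ± 0.14 and Acta1, skeletal actin, by 3.75 ± 0.16. Of the 15 genes of largest femur excess, 6 are muscle genes. Muscle RNA was thus part of every femur sample compared with fat, and its part in the other gene groups was not tested. Values of muscle-known genes are given beside the groups they belong to below.

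The Mylpf and Ckm windows are shown with the E-box CAGCTG, a sequence that reads the same on both strands and that muscle factors of the MyoD family are known to bind. It was in 7 of 13 muscle genes with a window (53.8%) and in 15.3% of kept genes. TATAAA was also more frequent, in 30.8% of the same genes and 8.32% of kept genes. Mylpf lies at chr7:127211358-127211657 and Ckm at chr7:19410844-19411143, both on the plus strand, with matches at -51 and -249.
Mylpf: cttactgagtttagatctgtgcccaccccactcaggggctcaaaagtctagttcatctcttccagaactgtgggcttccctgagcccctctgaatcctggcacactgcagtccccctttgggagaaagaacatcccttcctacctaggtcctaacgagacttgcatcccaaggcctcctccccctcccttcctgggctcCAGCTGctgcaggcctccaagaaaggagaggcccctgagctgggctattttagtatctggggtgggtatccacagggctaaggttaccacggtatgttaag
Ckm: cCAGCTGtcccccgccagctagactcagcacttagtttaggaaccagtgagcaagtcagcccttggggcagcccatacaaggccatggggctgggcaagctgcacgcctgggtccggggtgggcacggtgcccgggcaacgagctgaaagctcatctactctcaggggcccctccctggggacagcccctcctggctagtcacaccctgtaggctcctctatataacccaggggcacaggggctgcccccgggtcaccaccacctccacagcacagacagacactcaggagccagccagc

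Fat was marked by the machinery that stores and mobilises triglyceride. All 14 lipid droplet and lipolysis genes were higher in fat, against 36.5% of all genes, with a median of -3.36. Cidec, which enlarges lipid droplets, was 24084, 22824, 23924 and 23924 in fat and 130, 235, 229 and 283 in femur (112-fold, -6.81 ± 0.20). Plin1, the perilipin that coats adipocyte droplets, was 1765 to 2206 in fat and 12.8 to 35.6 in femur (-6.39 ± 0.24), and Plin4 18.8-fold higher (-4.23 ± 0.15). Pnpla2, the first lipase of triglyceride breakdown, was 7.72-fold higher (-2.95 ± 0.11). Acvr1c, the activin receptor ALK7, was 2746 to 4366 in fat and 5.2 to 71.4 in femur (-6.62 ± 0.31). Of the 14 genes, 12 were above 16 on all femur arrays, with a summed intensity of 11944 to 13171 in femur and 118290 to 124905 in fat.

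All 20 fatty acid and triglyceride synthesis genes were higher in fat (median -3.08). Thrsp, a lipogenic nuclear protein, was 974, 1101, 2694 and 2294 in fat and 26.6 to 45.4 in femur (-5.52 ± 0.24). Scd1, which makes monounsaturated fatty acids, was 6.22-fold higher (-2.64 ± 0.20), and Acly, which supplies cytosolic acetyl-CoA, 2.80-fold (-1.49 ± 0.11). For uptake, 11 of 12 genes were higher in fat (median -2.45): Lpl, lipoprotein lipase, was 28864 to 30940 in fat and 7200 to 8592 in femur (-1.87 ± 0.11), and Cav1 and Cav2, the caveolins of adipocyte and endothelial membranes, differed by -3.19 ± 0.17 and -5.10 ± 0.34. The regulators were on the same side, 14 of 15 adipogenic transcription factors being higher in fat (median -2.91). Cebpa read 1950 to 2504 in fat and 44.6 to 65.4 in femur (-5.30 ± 0.14), Pparg 4207 to 5028 and 388 to 569 (-3.27 ± 0.14), and Nr1h3, the oxysterol receptor LXR alpha, 3224 to 3930 and 308 to 362 (-3.37 ± 0.11). Ppargc1a, a coactivator also abundant in muscle, was the exception, 3.39-fold higher in femur (1.76 ± 0.43, adjusted p = 0.0109).

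Among secreted proteins, 10 of 12 adipokine genes were higher in fat (median -3.49). Rarres2, chemerin, was 18017 to 20415 in fat and 586 to 1136 in femur (-4.39 ± 0.18). Angptl4, an inhibitor of lipoprotein lipase, was 12.7-fold higher (-3.67 ± 0.12). Sfrp5, a secreted Wnt antagonist, was 282 to 526 in fat and at most 25.8 in femur (-4.46 ± 0.17). The 1 adipokine gene higher in femur was Serpina12, vaspin, at 71.7 to 98.2 against 4.8 to 30.0 (2.22 ± 0.18), a dim signal in both tissues. On the femur arrays 9 of the 12 adipokine genes were above 16 on all 4, with a summed intensity of 3924 to 5649 against 77370 to 87352 in fat.

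The window of Lep is shown with its TTGCNNAA match at -55 in capitals, since C/EBP alpha is known to act on this promoter (chr6:29059971-29060270, plus strand). Over the adipocyte genes the pattern was in 8 of 47 (17.0%), against 8.79% of kept genes. Other patterns were raised as much: ACCACA was in 23.4% of these genes, against 12.9%, and AGATAA in 12.8%, against 6.65%. TATAAA was less frequent, at 4.26% against 8.32%.
Lep: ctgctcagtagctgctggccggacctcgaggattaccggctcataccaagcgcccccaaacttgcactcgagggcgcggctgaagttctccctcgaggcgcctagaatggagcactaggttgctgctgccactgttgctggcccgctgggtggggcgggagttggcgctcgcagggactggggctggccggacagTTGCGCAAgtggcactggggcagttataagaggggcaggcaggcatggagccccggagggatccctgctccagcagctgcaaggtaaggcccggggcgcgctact

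Several of the most fat-biased genes were in none of the lipid lists. Npr3, the clearance receptor for natriuretic peptides, was 8813, 8480, 8919 and 7550 in fat and 35.8 to 57.3 in femur (187-fold, -7.55 ± 0.19). Nnat, neuronatin, a small membrane protein, was 8400 to 11700 against 38 to 65.3 (-7.54 ± 0.16). Retnla, a resistin-like protein, was 13345, 12857, 6753 and 7468 against 44.4 to 66.3 (-7.48 ± 0.26). None of these ranges met. Acaa1b, a peroxisomal thiolase of fatty acid oxidation (-7.53 ± 0.20), Glb1l2, a galactosidase-like protein (-7.05 ± 0.33), Gsta3, a glutathione transferase (-6.93 ± 0.18), and Irs3, an insulin receptor substrate of rodent fat (-6.71 ± 0.17), followed. Krt79, a keratin, Sucnr1, the succinate receptor, and Ugt1a6a, a glucuronosyltransferase, were fat only, at least 126-fold, 86.8-fold and 70.4-fold higher.

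Mesothelium, the sheet that covers visceral organs and fat pads, was read on every fat array. All 12 mesothelial genes were higher in fat (median -3.01), and 9 were at or below 16 on every femur array, where their summed intensity was 108.7 to 124.8. Upk3b, a uroplakin of mesothelial cells and the widest fat difference among the named genes, read 2484, 2958, 2992 and 4917 in fat and at most 15.6 in femur (at least 202-fold, -7.65 ± 0.18). Wt1, a transcription factor of mesothelium, read 448, 513, 535 and 554 (at least 31.9-fold), and Msln, mesothelin, 132, 165, 191 and 255 (at least 11.3-fold). Krt8, a keratin of simple epithelia, was 144, 454, 676 and 1026 in fat and 10 to 22.5 in femur (-4.62 ± 0.50). Fat 1 was lowest and fat 4 highest for all 4 genes. Of other tissues looked for, none of 7 epididymal genes with a probe was kept, 4 of 9 skin genes with a probe were kept and were higher in fat, with Sbsn at 205 to 277 (-3.46 ± 0.14) and Krt14 at 39.4 to 123 (at least 5.54-fold), and of 8 pancreatic genes with a probe 2 were kept, the amylase gene Amy2a5 reading 103 to 175 in fat (-2.84 ± 0.12).

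**Figure D3:**
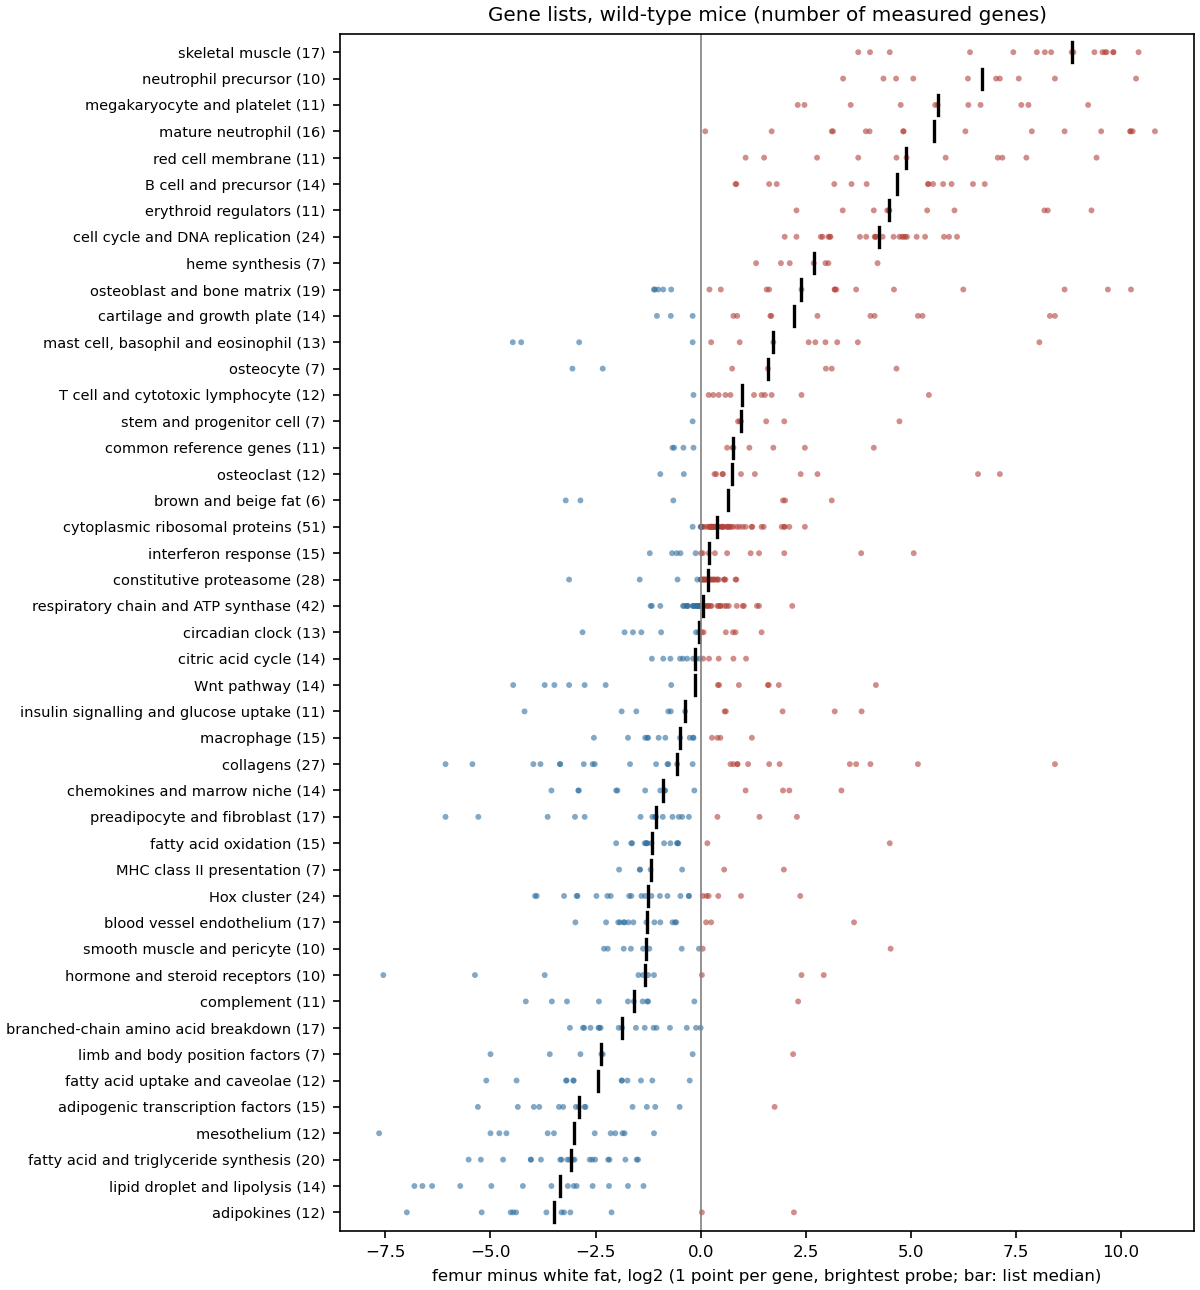
Femur minus white fat on the log2 scale (horizontal axis) for each measured gene of the gene lists (rows, number of genes in brackets), red above 0 and blue below, with a black bar at each list's median. Skeletal muscle and marrow lists lie to the right (medians up to 8.83), lipid storage, adipokine and mesothelium lists to the left (down to -3.49), and ribosomal, proteasome and respiratory chain lists near 0.

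Oxidative pathways mixed genes of both tissues. Of 15 fatty acid oxidation genes, 13 were higher in fat (median -1.17), such as Acadm, medium-chain acyl-CoA dehydrogenase (-1.27 ± 0.10), Hadh (-2.01 ± 0.15) and Etfb, an electron carrier (-0.72 ± 0.11). Cpt1b, the muscle form of the transporter that admits fatty acids to mitochondria, was 22.7-fold higher in femur (4.50 ± 0.17). Branched-chain amino acid breakdown was on the fat side for 14 of 17 genes, none being higher in femur (median -1.87), with Dbt, a subunit of the rate-setting dehydrogenase, at 1131 to 1369 against 133 to 162 (-3.11 ± 0.12) and Bcat2, the mitochondrial transaminase, at 3284 to 5277 against 720 to 868 (-2.43 ± 0.18).

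Of 6 brown and beige fat genes kept, 3 were higher in femur and 2 in fat. Ucp1, the uncoupling protein of brown fat, was dim in both tissues, at 32.1 to 59.9 in fat and -1.9 to 53.2 in femur (-0.65 ± 0.44, adjusted p = 0.230). Without replicate 1 it was called higher in fat (-1.11, adjusted p = 0.0447). Cidea was 9.27-fold higher in fat (-3.21 ± 0.37). Cox7a1 and Cox8b, respiratory chain subunits shared by brown fat and muscle, were 8.67-fold and 4.03-fold higher in femur. The muscle genes above were high on the same femur arrays, and their part in these differences was not tested.

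Insulin signalling genes that were kept split evenly, with 5 of 11 higher in each tissue (median -0.37), while 14 had a probe. Insr, Irs1 and Akt1 were not kept. They read at most 20.1, 23.25 and 11.64 in femur and at most 10.02, 21.87 and 16.67 in fat. Akt2, a kinase of the insulin pathway, was fat only, at 208 to 393 (at least 18.3-fold, -4.19 ± 0.18). Slc2a4, the insulin-dependent glucose transporter of fat and muscle, was 829 to 978 in fat and 466 to 749 in femur (1.64-fold, -0.71 ± 0.15). Slc2a3, a glucose transporter of blood cells and neurons, was 14.2-fold higher in femur (3.83 ± 0.21).

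Immune genes of fat differed from those of marrow. Of 15 macrophage genes, 8 were higher in fat, 1 in femur and 6 were not called (median -0.49). Trem2, a lipid receptor of macrophages, was 1445, 1217, 441 and 254 in fat and 81.5 to 150 in femur (-2.54 ± 0.49). C1qc, a subunit of complement C1q, was 3407 to 5142 and 904 to 1763 (-1.73 ± 0.23), while Lyz2, lysozyme, was not called by its brightest probe (0.47 ± 0.31, adjusted p = 0.227), although its other probes were called higher in femur (1.31 and 2.24). The 1 femur-biased member was Timd4, a phosphatidylserine receptor of resident macrophages (1.22 ± 0.23). Of 7 MHC class II genes, 4 were higher in fat, among them Cd74, the invariant chain, at 14321, 14872, 7242 and 6976 against 2826 to 4443 (-1.44 ± 0.32) and H2-Ab1 (-1.94 ± 0.32); H2-Oa, which tunes peptide loading in B cells, was higher in femur (1.98 ± 0.25). Fats 1 and 2 were the higher pair for Trem2, Cd74 and H2-Ab1.

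Complement genes were mostly higher in fat, 9 of 11 being called there (median -1.59), with C4b 17.8-fold (-4.16 ± 0.13) and C2 5.35-fold (-2.42 ± 0.11). The exception was Itgam, the leukocyte integrin that binds complement (2.32 ± 0.31 higher in femur). The 15 interferon response genes were divided, 6 higher in femur (40.0%) and 4 in fat (26.7%), near the shares of all genes. Rsad2, viperin, was 10280 to 13085 in femur and 269 to 449 in fat (33.6-fold, 5.07 ± 0.14), Isg15 was 14.2-fold higher in femur (3.82 ± 0.16), and Ifit3 2.31-fold higher in fat (-1.21 ± 0.13).

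Vessel and fibroblast genes were mostly higher in fat. Of 17 endothelial genes, 14 were higher in fat (median -1.29), for example Cdh5, the cadherin of endothelial junctions, at 688 to 820 against 80.7 to 108 (-2.98 ± 0.13). Stab2, a scavenger receptor of sinusoidal endothelium such as that of marrow, was the only member called higher in femur by its brightest probe, at 366 to 452 against 24.8 to 37.2 (12.5-fold, 3.65 ± 0.15), and Aqp1, a water channel of vessels and red cells, was not called by its brightest probe (0.25 ± 0.11, adjusted p = 0.0792) but was called higher in femur by its other probes (1.13 and 0.51). Of 10 smooth muscle and pericyte genes 6 were higher in fat, with Acta2, smooth muscle actin, 3.55-fold (-1.83 ± 0.13). Des, desmin, which striated muscle also makes, was 23.0-fold higher in femur (4.52 ± 0.17). Of 17 preadipocyte and fibroblast genes 13 were higher in fat (median -1.06). Fap, a protease of activated fibroblasts and marrow stroma, was 4.90-fold higher in femur (2.29 ± 0.14), and Dcn, decorin, was shared, at 11264 to 13869 in femur and 14770 to 17415 in fat (-0.28 ± 0.11, adjusted p = 0.0634). Lum, lumican, was not called either (0.40 ± 0.33, adjusted p = 0.311), and was called higher in femur without replicate 1 (0.77, adjusted p = 0.0368).

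Collagens were divided between the tissues. Of 27 genes kept, 12 were higher in femur (44.4%), 13 in fat (48.1%) and 2 were not called. On the femur side, beside the genes of collagens I, II and X given above, Col24a1 (at least 11.7-fold), Col27a1 (1.88 ± 0.14), Col5a2 (1.13 ± 0.28), Col7a1 (0.88 ± 0.16) and Col16a1 (0.71 ± 0.13) were called. On the fat side the widest was Col15a1, of the zone beneath basement membranes, at 9312 to 11920 against 138 to 181 (67.1-fold, -6.07 ± 0.13). Col5a3, a fibrillar chain, followed at 826 to 1134 against 18.1 to 33.5 (43.2-fold, -5.43 ± 0.15). Col4a1, of basement membranes, was at 16278 to 18017 against 1487 to 1967 (10.2-fold, -3.35 ± 0.12) and Col6a1, of microfibrils, at 12969 to 21296 against 2236 to 3224 (5.94-fold, -2.57 ± 0.20). In none of these 4 genes did a femur reach the lowest fat value. Col14a1 was also higher in fat (-2.52 ± 0.22), as was Col3a1 (-1.06 ± 0.28, adjusted p = 0.0155), whose call was lost without replicate 2 (adjusted p = 0.056).

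Position genes also set the sites apart. Hox genes keep the address of a tissue along the body axis, and 15 of 24 kept were higher in fat, 3 in femur and 6 not called (median -1.24). Hoxd4 was 306 to 493 in fat and 10 to 41.2 in femur (-3.94 ± 0.25), Hoxb5 390 to 772 and 34.3 to 47.6 (-3.90 ± 0.21), Hoxc6 2338 to 2673 and 363 to 517 (-2.48 ± 0.11) and Hoxa5 4.66-fold higher in fat (-2.22 ± 0.17). Hoxc10, of the posterior part of the cluster, was 147 to 261 in femur and 16.9 to 47.9 in fat (5.17-fold, 2.37 ± 0.39), whereas Hoxc9 was not called (-0.28 ± 0.15, adjusted p = 0.136). Among 7 other position factors, 5 were higher in fat. Shox2, a limb homeobox gene, was the only one called higher in femur, at 62.0 to 113 against 14.8 to 24.0 (2.20 ± 0.19), while Meis2 (-2.86 ± 0.18) and Nr2f1 (-2.36 ± 0.13) were higher in fat.

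**Figure D4:**
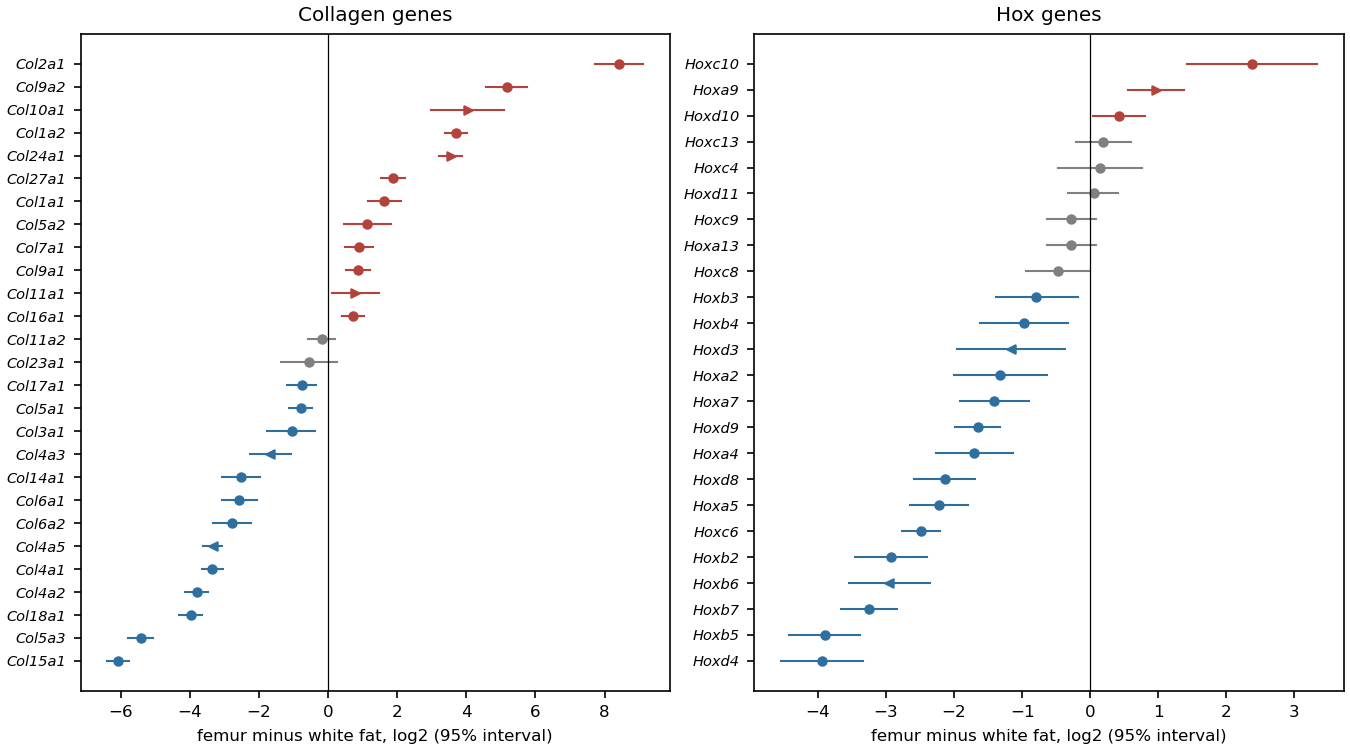
Femur minus white fat on the log2 scale with its 95% interval (horizontal axis) for 27 collagen genes (left) and 24 Hox genes (right), red where called higher in femur, blue where called higher in fat and grey where not called; triangles mark bounds, where a tissue was at or below 16 on all its arrays. Collagens spread to both sides from 8.43 (Col2a1) to -6.07 (Col15a1), whereas 15 of the Hox genes lie to the left with Hoxc10 alone beyond 2 on the right.

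Receptors and signals differed in kind. Of 10 hormone and steroid receptor genes, 7 were higher in fat. Ghr, the growth hormone receptor, was 12969 to 16039 in fat and 863 to 1308 in femur (13.1-fold, -3.71 ± 0.12), and Tshr, the thyrotropin receptor, was fat only, at 609 to 782 (at least 41.2-fold, -5.37 ± 0.11). Vdr, the vitamin D receptor, was 303 to 342 in femur and 23.9 to 59.8 in fat (7.64-fold, 2.93 ± 0.23). Of 14 Wnt pathway genes 5 were higher in femur (35.7%, as of all genes) and 7 in fat (50%), with 2 secreted inhibitors at the extremes: Wif1 at 594 to 814 in femur against 31.6 to 42.4 (18.1-fold, 4.17 ± 0.17) and Sfrp5, given above, on the fat side. Of 14 chemokine and niche genes 4 were higher in femur and 9 in fat. The marrow niche factors Cxcl12, which retains blood stem cells, and Vcam1, an adhesion protein, were higher in femur, at 16949 to 20415 against 4595 to 5148 (1.96 ± 0.12) and 5468 to 7988 against 461 to 890 (3.35 ± 0.26). Kitl, stem cell factor, and Il7, a lymphoid growth factor, which the niche is also known for, were called higher in fat at low levels, Kitl at 24.3 to 33.2 and at most 13.8 in femur (at least 1.80-fold) and Il7 at 135 to 200 against 72.6 to 111 (-0.85 ± 0.16). Ccl11, the eosinophil attractant eotaxin, was higher in fat, at 1235 to 2115 against 104 to 188 (-3.55 ± 0.28).

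Clock genes had no common direction, 4 of 13 being higher in femur (30.8%) and 5 in fat (38.5%), near the shares of all genes. Cry2, a clock repressor, was 527 to 666 in fat and 73.9 to 89.5 in femur (-2.81 ± 0.13). Bhlhe40, another repressor, was 857 to 1168 in femur and 340 to 408 in fat (1.45 ± 0.12). Dbp, a clock output factor, was 899, 924, 1373 and 946 in femur and 371, 392, 994 and 752 in fat (0.83 ± 0.20, adjusted p = 0.0111), so that animal 3 was highest in both tissues and the ranges of the groups met. Hours of tissue collection are not used here.

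Genes of respiration and of protein turnover were mostly close in level, where 35.4% of all genes were. Of 42 respiratory chain and ATP synthase genes, 32 were close in level and 24 were not called (median 0.05). Atp5b, the catalytic subunit of ATP synthase, read 24596 to 25543 in femur and 25789 to 27923 in fat (-0.13 ± 0.10, adjusted p = 0.293). Exceptions were Atp5g1, 4.53-fold higher in femur (2.18 ± 0.11), and Ndufb3, 2.28-fold higher in fat (-1.19 ± 0.12). Of 14 citric acid cycle genes 3 were called higher in femur (21.4%) and 5 in fat (35.7%), 9 being close in level. Of 28 proteasome genes 10 were called higher in femur (35.7%, near the 35.0% of all genes) and 3 in fat (10.7%, against 36.5%). Of the 28, 23 were close in level, with Psmb1 an outlying probe at 1700 to 2198 in fat and 200 to 225 in femur (-3.13 ± 0.11).

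Ribosomal protein genes leaned to the femur by their brightest probes: 34 of 51 were called higher there and none in fat. Their median was 0.40 and 36 were close in level. Dimmer probes differed more, with 1 of Rps19 called higher in fat (-3.87, limma adjusted p = 2.42e-05) and 1 of Rps24 higher in femur (3.05). The brightest ribosomal probes, Rplp1, Rpl41, Rps20 and Rps12, differed by 0.02 to 0.12 and none was called. Gpx1, glutathione peroxidase, Fth1, ferritin heavy chain, and Hspa8, a constitutive chaperone, completed the brightest genes of like level with Tuba1b, a tubulin, which was called at -0.35 ± 0.11 (adjusted p = 0.0269) and lost its call without replicate 1, 2 or 4 (adjusted p = 0.0789, 0.0867 and 0.104). The second probe of Hspa8 pointed the other way (-0.53). These probes lie near the top of the scale, at 22008 to 30940, where the common ceiling limits any difference.

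Common reference genes were not interchangeable, 7 of 11 being called higher in femur and 2 in fat. Gapdh was 2.24-fold higher in femur (1.16 ± 0.10) and Actb 1.55-fold (0.63 ± 0.12), with other Actb probes between 0.29 and 3.69. Hprt and B2m were 1.59-fold and 1.55-fold higher in fat (-0.67 ± 0.12 and -0.63 ± 0.10), but the other Hprt probes were not called (-0.24 and -0.08). The Rplp0 probe, another common reference, was 5.59-fold higher in femur (2.48 ± 0.14).

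Replicate animals were alike for most genes. The median SD between the 4 animals was 0.163 in femur (9016 genes above 16 on all 4 arrays) and 0.176 in fat (8920 genes), and SD exceeded 1 for 10 genes in femur and 101 in fat. In fat, the widest were Cuzd1 at 23.0, 1157, 1870 and 2807, Cdhr5 at 16.9, 191, 409 and 713, Clic6 at 37.6, 206, 422 and 798, Iyd, the iodotyrosine deiodinase, at 21.2, 175, 250 and 533, and Mt3, a metallothionein, at 36.0, 300, 395 and 813. Fat 1 was lowest and fat 4 highest in all 5, as for the 4 mesothelial genes above, and the mean log2 intensity of the mesothelial list was 6.94, 7.54, 7.68 and 8.27 on the same arrays. Rgs1, a regulator of G protein signalling in leukocytes, had the opposite order, 588, 403, 73.2 and 29.2, and the macrophage list means were 9.70, 9.60, 8.92 and 8.89. Adipoq stayed between 15666 and 18262 across the same 4 fats. The part of mesothelium or macrophages in these differences between animals was not tested.

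Those 5 genes were all called higher in fat, Mt3 least firmly (-1.63 ± 0.58, adjusted p = 0.0435) and not without replicate 2, 3 or 4 (adjusted p = 0.117, 0.124 and 0.132). Rgs1 missed the threshold by its brighter probe (-1.97 ± 0.75, adjusted p = 0.0543), which passed without replicate 4 (adjusted p = 0.00593), and was called by its other probe (-2.12, adjusted p = 0.0271). In femur the widest genes were the eosinophil genes and Col10a1 described above, Cish, a cytokine-induced feedback inhibitor, and Serpina1e. Cish read 249, 1194, 158 and 723 in femur and 126, 1957, 209 and 447 in fat, so the same animals were high in both tissues and the difference was 0.14 ± 0.31 (adjusted p = 0.700). Serpina1e, an alpha-1 antitrypsin copy with near-identical neighbours, was 18.2, 32.7, 128 and 26.1 in femur (1.23 ± 0.45, adjusted p = 0.0471), a call lost without replicate 2 or 4 (adjusted p = 0.0974 and 0.0688).

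**Figure D5:**
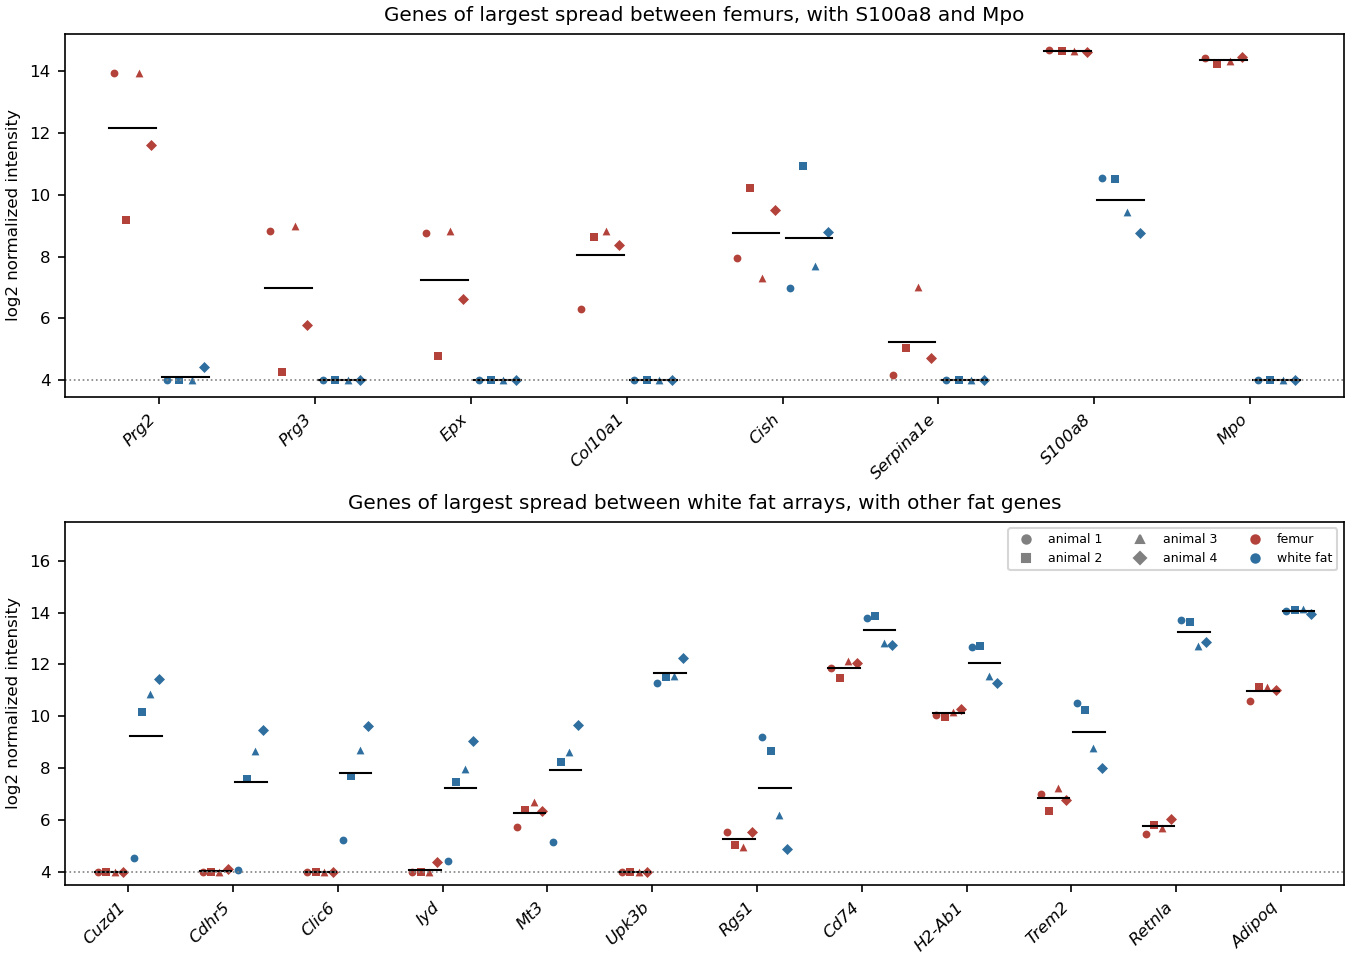
Log2 intensity on each array (vertical axis; dotted line, floor at 4) of the genes of largest spread between femurs (upper panel) and between fats (lower panel), with stable genes for comparison; 1 point per array, red femur and blue white fat, a symbol per animal, bars the means of 4. Femurs 1 and 3 are high for Prg2, Prg3 and Epx, fat 1 is low and fat 4 high for Cuzd1, Cdhr5, Clic6, Iyd and Mt3, and Adipoq stays level across the fats.

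The same contrast in the 4 AEA001 mutants, whose arrays the choice of wild-type samples did not use, gave 10833 of 14913 probes called (72.6%), 5046 higher in femur and 5787 in fat. Of the 10590 probes called in wild types, 9027 (85.2%) were called in the same direction in mutants and 32 in the opposite one. Without mutant replicate 4, which shares an identifier with wild-type replicate 3, 9000 (85.0%) were called in the same direction. Mutant differences of the marker genes were 8.80 for Bglap, 4.73 for S100a8, 3.36 for Alas2, -6.79 for Lep and -3.26 for Adipoq. Of the 700 femur-only probes, 33, 109, 45 and 56 exceeded 16 on the 4 mutant fat arrays, so mutant fat 2 held the most. For the 473 fat-only probes these counts on the mutant femurs were 39, 34, 40 and 48. A test of whether the tissue difference itself differed by genotype called 896 probes (6.01%), 1982 without the pair that shares an identifier, and 0 without mutant replicate 2 (limma, 3474 probes at an unadjusted p under 0.05), so no gene's tissue difference is described as specific to a genotype.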

How the data were processed

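Per the labels' protocols, RNA came from a Trizol extraction cleaned on columns, and biotin-labelled cRNA was made from it. The values are the intensity of each probe on a linear scale, as deposited by the authors after GenomeStudio 2011.1, per the submitters' processing notes; how background was corrected and values were normalized is not given in the sources used here. Nearly identical distributions on the 8 wild-type arrays, as after quantile normalization over both tissues, hide differences in total RNA. A table of 16 signal and 16 detection columns whose names match no sample was not used.

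Probes were named from the platform annotation (23978 with 1 gene, 1719 unnamed, 0 with several), and 23962 symbols were matched to RefSeq GRCm38.p6. Of 2742 genes with several kept probes, 2091 (76.3%) had all probes of one sign. The limma fit (version 3.58.1, R 4.3.3, two-sided, adjusted p under 0.05) had the animal as a block, because same-numbered arrays carry the same mouse identifier. Deviations of the 2 tissues of an animal correlated by -0.331 to 0.021 over 11491 probes, and those of different animals by -0.226 to 0.287. The pairing thus rests on the identifiers, since tissues of 1 animal were no more alike than those of different animals. The 4 arrays of a group come from separate mice by their identifiers, and this number sets the precision.

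Genes were named by rule: the 5 markers; the 15 largest differences each way; in each list up to 3 brightest members, the largest called difference and the largest called opposite one; the 10 brightest genes close in level; and the 6 of largest SD in each tissue. Chosen after their values were seen were Ibsp, Sp7, Col1a2, Alpl, Pth1r, Acp5, Acan, Anxa1, Klf1, Gata1, Tpsb2, Cma1, Ckm, Slc2a4, Ucp1, Hadh, Msln, Isg15, Cdh5, Hoxb5, Tshr, Kitl, Il7, Col5a3, Col14a1, Col3a1, Col24a1, Col27a1, Col5a2, Col7a1, Col16a1, Mcpt8 and Fcer1a. The members and the 50 gene lists were chosen with earlier results of these data known, and the lists are given by counts and medians alone. The fit was also run on simulated data with a shared animal effect and changes in brighter probes only. That run does not cover probes near the floor, and no result here rests on it. Alternatives covered the floor, the filter, the block, normalization, weights, probe choice, threshold and each animal left out.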

Additional observations from a re-analysis of the deposited data

Results flagged for a closer look

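In each group of 4 arrays the highest or lowest value was compared with the next one. A gap above Dixon's 95% limit, as a share of the group's range, was found in 33 of 437 groups tested (7.6%), where chance gives about 1 in 20. Values below are log2 intensities, with the other 3 arrays in brackets.

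Femur 1 stood apart most often. It was low for the cartilage genes Col2a1 at 11.82 (12.73 to 12.90) and Mia at 7.91 (8.84 to 9.03), and for the mean of the cartilage list at 6.83 (7.69 to 7.77). It was also low for Phex at 8.50 (8.70 to 8.73), Mylpf at 14.35 (14.56 to 14.60), Glb1l2 at 4.62 (6.25 to 6.52) and the T cell list mean at 6.30 (6.58 to 6.61). The same femur was high for Hbb-b2 at 12.57 (12.17 to 12.18) and for the branched-chain amino acid list mean at 8.41 (8.34). Among the other femurs, Col1a2 was 9.91 in femur 2 (9.29 to 9.37), Dbp was 10.42 in femur 3 (9.81 to 9.88), Plk1 was 10.76 in femur 4 (11.08 to 11.14), and the respiratory chain list mean was 12.08 in femur 4 (12.01 to 12.02).

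Fat 4 was low for Mepe at 4.58 (5.12 to 5.2), Angptl4 at 14.07 (14.24 to 14.26), Stab2 at 4.63 (5.18 to 5.22), Hoxc10 at 4.08 (5.36 to 5.58) and the erythroid regulator list mean at 5.89 (5.98). It was high for Dcn at 14.09 (13.85 to 13.89) and for the Wnt pathway list mean at 6.99 (6.70 to 6.71). Fat 3 was high for Acaa1b at 12.22 (11.92 to 11.96), Nr1h3 at 11.94 (11.65 to 11.70) and Cry2 at 9.38 (9.04 to 9.10), and low for Plk1 at 4.67 (4.98 to 5.04), Krt14 at 5.30 (6.78 to 6.95) and the preadipocyte and fibroblast list mean at 10.34 (10.53). Fat 1 was low for Sparc at 14.55 (14.72 to 14.75) and high for Cav1 at 14.51 (14.31 to 14.34), Cdh5 at 9.68 (9.43 to 9.45), Tshr at 9.61 (9.25 to 9.31) and Amy2a5 at 7.45 (6.68 to 6.81). Fat 2 was low for Cidec at 14.48 (14.55 to 14.56) and Slc2a4 at 9.70 (9.91 to 9.93). The ranges of femur and fat did not overlap in these genes and lists, except in Dbp and Mia. The causes of the gaps were not tested.

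On all 16 arrays, 6 named genes passed the test of whether the tissue difference differed by genotype (limma, Benjamini-Hochberg). No probe passed it without mutant replicate 2, so none of the 6 is described as specific to a genotype. Values of these genes without the pair that shares an identifier are not given. The change, mutant minus wild type, was -0.86 for Alas2 (adjusted p = 0.0349), 1.22 for Anxa1 (adjusted p = 0.0348), -0.94 for Hbb-bt (adjusted p = 0.0435), 1.43 for Cav2 (adjusted p = 0.0339), 1.01 for C1qc (adjusted p = 0.0348) and 1.49 for Lyz2 (adjusted p = 0.0321). Without mutant replicate 2 the changes were of like size, at -0.75, 1.08, -0.88, 1.52, 1.02 and 1.56, but none passed, with adjusted p of 0.0966, 0.0961, 0.106, 0.086, 0.0875 and 0.086 in the same order.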

How the results depend on the processing

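Counts moved by over 1.5 times in 2 cases, a test against 2-fold and the test between genotypes. Tested against a 2-fold difference (treat) in place of 0, 1936 probes were higher in femur and 2091 in fat, and 1159 and 1556 of those read on all arrays were 2-fold higher in femur and fat. The test between genotypes gave 0 probes without AEA001 mutant replicate 2 and 1982 without wild-type replicate 3 and mutant replicate 4. Leaving out 1 animal gave 4379 to 4772 probes higher in femur, 4995 to 5358 higher in fat, 743 to 775 femur-only, 539 to 562 fat-only, 1902 to 1969 and 2480 to 2570 shared probes 2-fold higher in femur and fat, 4391 to 4732 close in level, and, leaving out mutant replicate 2 or 4, 8481 or 9000 called alike in mutants. With no replicate block 5182 and 5837 probes were called in femur and fat, and with a random block 5107 and 5755. Cyclic loess gave 5457 and 5073, and median centring 5371 and 5154; loess moved the median of all probes from -0.087 to 0.018, and differences near 0 are read against that shift.

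Of 209 named genes, 190 were called, 162 kept their side of the threshold and direction under all 18 settings, 36 lost a call somewhere and 9 gained one; no called gene changed sign. Of the genes not called, Anxa1 was -0.061 with array weights and between -0.114 (without replicate 3) and 0.354 (without replicate 2) with an animal left out, Hspa8 turned to -0.179 by the mean of its probes, and Cish to -0.14 without replicate 1 and -0.043 without replicate 4, against 0.425 without replicate 2. Beside Sox9, the calls on Mia, Serpina1e and Mt3 were lost with no replicate block (adjusted p = 0.121, 0.0539 and 0.0978). Of 49 list medians 5 changed sign somewhere. With probes above 16 on all 8 arrays the osteocyte, cartilage and insulin medians became -2.33, -0.71 and 0.57, since that filter drops genes not read in both tissues; the respiratory chain median was -0.007 without replicate 1, and the clock median ranged from -0.19 to 0.11. Dim probes near 16 and bright ones near 33738 limit what these arrays can resolve.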

Other observations

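Different probes of 1 gene did not always give 1 answer. Of 2742 genes with several kept probes, 146 had a probe called higher in femur and another called higher in fat. Within the named genes the size also varied by probe: the 3 Bglap probes gave 9.69, 9.33 and 1.42, the 3 Mpo probes 10.36, 8.30 and 6.74, and the Gsta3 probes -6.93 and -1.85.

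Of the remaining lists, 2 of the 3 globin genes kept were higher in femur (the alpha-globin chaperone was not measured here), as were both nerve and Schwann cell genes kept of 6 with a probe, whose list mean was 8.06 to 8.18 in femur and 6.20 to 6.38 in fat. Of 2 pancreatic genes kept, 1 was higher in fat.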
